A study of Caenorhabditis elegans with 4 samples.

Results

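Pseudogenes are gene copies that have lost the ability to code for a full protein, and some are still transcribed. The 175 described here are those of the deposited count table that Ensembl annotates as pseudogenes on the WBcel235 assembly of *Caenorhabditis elegans*, that have a sequence name only and no hyphenated gene name, and that had 20 or more counts summed over the 4 libraries. The table holds 20181 usable rows, of which 720 are pseudogenes. RefSeq names 223 of those, and of the other 497, 150 had no count in any library, 172 had between 1 and 19 counts in total, and 175 reached the threshold. The members were thus chosen by their summed count, whichever group it came from. A pseudogene with counts in 1 group alone therefore had to differ between groups, and the counts of called members below are a description.

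In *C. elegans* many pseudogenes belong to large, fast-changing gene families, and their transcripts meet quality control at more than one step. Messages with an early stop codon are degraded by nonsense-mediated decay, which in worms needs the *smg* genes. In the germ line, Argonaute proteins of the WAGO group carry small 22G-RNAs that silence transposons, pseudogenes and other aberrant transcripts. Germ cells also keep most of the X chromosome at low activity.

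RNA was sequenced from gonads dissected from young adults of the wild-type strain N2 (2 libraries), and also from intact young adults, taken whole, of the *glp-4 (bn2)* mutant, a strain with very few germ cells when raised at its restrictive temperature (2 libraries). Each sample pooled about 50 gonads or worms, all grown on OP50 bacteria, and the labels give no growth temperature. A dissected gonad includes somatic sheath cells, and a *glp-4* worm keeps its somatic gonad. The groups differ in genotype as well as in tissue, and these cannot be told apart. In such bulk samples, fewer cells of a type and less RNA per cell also cannot be told apart. Nothing in the labels ties the duplicates to separate cultures, and the spread behind each p-value may therefore be technical.

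Library totals ran from 19538620 to 25624824 counts. Levels are given as CPM, the count relative to the TMM-scaled library size. In a library without a count, up to 3 counts (0.116 to 0.142 CPM) remain possible. That limit, like the intervals below, covers counting error only, since amplified reads are not independent molecules. All 9 germ line markers were gonad-enriched, with summed levels of 10147 and 10382 CPM in gonads against 103 and 105 CPM in *glp-4* worms, and none was at 0 in either group. Enriched in *glp-4* worms were all 5 intestinal, 4 body wall muscle, 3 pharyngeal, 4 epidermal and 4 somatic gonad markers and 4 of 5 neuronal ones, *unc-119* being called in neither direction. Summed intestinal levels were 107 and 83.7 CPM in gonads against 20421 and 24417 CPM in *glp-4* worms, and body wall muscle levels were 126 and 120 CPM against 7512 and 8319 CPM. Pharynx, neuron and epidermis markers summed to between 0.849 and 14.6 CPM in gonads and between 99.0 and 825 CPM in *glp-4* worms, and somatic gonad markers to 12.9 and 13.7 CPM against 146 and 183 CPM. The muscle gene *hlh-1*, the pharynx gene *ceh-22* and the epidermal genes *dpy-7*, *rol-6* and *dpy-13* were at 0 in both gonad libraries. The 5 sperm markers summed to 7.12 and 6.48 CPM in gonads against 3.29 and 3.44 CPM in *glp-4* worms, with *spe-11* gonad-enriched and *spe-38* at 0 in every library. The part of traces of the other tissue in the values below was not tested.

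Most of the expressed pseudogenes were called higher in gonads or higher in *glp-4* worms, as were most of all tested genes. Of the 175, 160 had enough counts in a group to be tested (at least 10 counts at the median library size in 2 libraries). Enriched here means a difference of 2-fold or more with an adjusted p below 0.05 in edgeR's quasi-likelihood test. By that definition 67 pseudogenes (41.9%) were gonad-enriched and 74 (46.2%) were enriched in *glp-4* worms, against 30.9% and 53.1% of all 13101 tested genes. The other 19 (11.9%) were called in neither direction, against 16.1% of all tested genes, of which 83.9% were called in 1 direction or the other. The median log2 fold change, gonad over whole worm, was -0.14 for the pseudogenes and -1.50 for all tested genes.

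**Figure D1:**
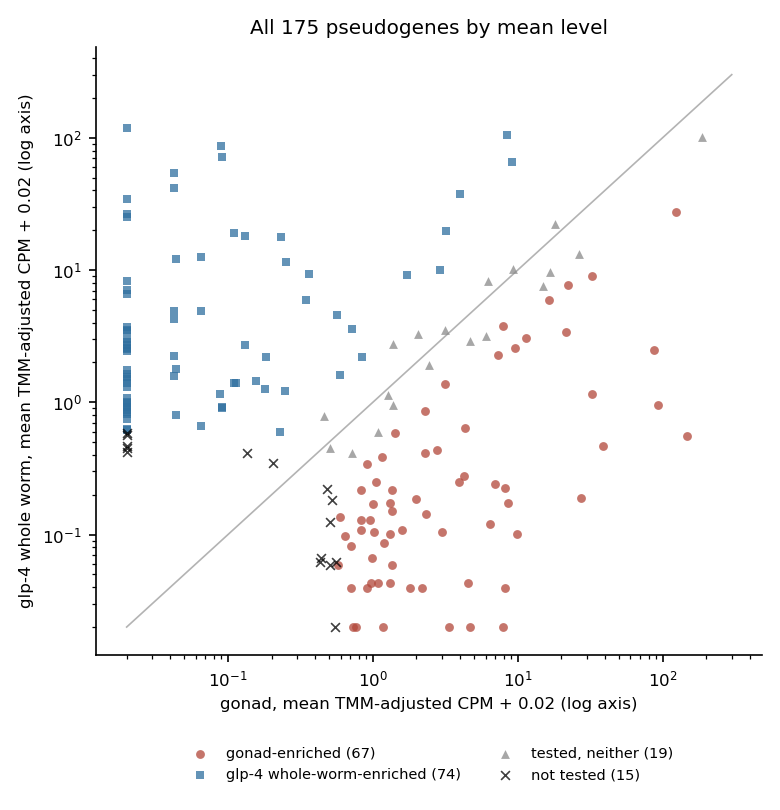
Mean TMM-adjusted CPM plus 0.02 of each of the 175 pseudogenes in gonads (horizontal, log axis) and in *glp-4* worms (vertical, log axis), with the grey line marking equal levels. The 67 gonad-enriched and 74 whole-worm-enriched pseudogenes lie on opposite sides of the line, with 19 tested pseudogenes of neither call near it and 15 untested ones at low levels.

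Summed over all 175, the level was of similar size in both groups, and the scaling decided whether the groups overlapped. With TMM scaling the sum was 1106 and 1197 CPM in gonads against 1174 and 1236 CPM in *glp-4* worms, so the groups' ranges overlapped. As a share of all counts the pseudogenes held 0.107% and 0.111% in gonads and 0.130% and 0.125% in *glp-4* worms, which did not overlap. By those plain library totals the mean was 1089 ± 29.0 CPM in gonads against 1272 ± 35.6 CPM in *glp-4* worms (SD, n = 2). The 67 gonad-enriched ones gave 769 and 850 CPM in gonads but 77.0 and 82.2 CPM in *glp-4* worms, whereas the 74 whole-worm-enriched ones gave 34.1 and 36.0 CPM in gonads against 907 and 949 CPM in *glp-4* worms. A few members carried much of it, since the 5 most abundant of each library held 55.1% and 55.4% of pseudogene counts in gonads and 40.3% and 40.2% in *glp-4* worms.

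Most of the pseudogenes were expressed at low levels. The median total was 110 counts over the 4 libraries, 82 of the 175 had under 100 counts, and 27 had 1000 or more. Per kilobase of exon, the median level was 0.533 CPM in gonads against 0.777 CPM in *glp-4* worms. Protein-coding genes that also have a sequence name only, taken at the same count threshold (5152 genes), had medians of 0.665 and 4.55 CPM per kilobase. Pseudogenes with a RefSeq gene name (74 at that threshold) had medians of 0.342 and 1.08 CPM per kilobase. Of the 63 named pseudogenes tested, 18 (28.6%) were gonad-enriched and 37 (58.7%) whole-worm-enriched, and of 4809 unnamed coding genes 1346 (28.0%) and 2783 (57.9%) were. The difference in these shares from the 160 pseudogenes was not tested.

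The members are mostly annotated as multi-exon loci. Their merged exons span 132 to 4599 bases with a median of 1420, in a median of 6 exons, and 5 of the 175 have a single exon. Gonad-enriched members had a median exon length of 1455 bases and whole-worm-enriched members of 1331 bases, with a median of 6 exons in both. Counts of near-identical copies could be split or lost in the authors' counting, and the sequences needed to examine this were not used here.

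Among gonad-enriched pseudogenes the most abundant was F02H6.4 (WBGene00008537, chromosome IV, 14207564 to 14219159, 9 exons). It had 2729 and 3695 counts in gonads and 9 and 17 counts in *glp-4* worms. The mean level was 147 ± 25.1 CPM in gonads (SD, n = 2) against 0.537 ± 0.170 CPM in *glp-4* worms, a log2 fold change of 8.06 ± 0.23 (SE, adjusted p = 2.40e-17, edgeR's quasi-likelihood test). Every gonad library was thus far above both whole-worm libraries. Its neighbour F02H6.1 (chromosome IV, 14199263 to 14201780) had 161 and 183 counts in gonads and none in *glp-4* worms. This makes F02H6.1 at least 125-fold higher in gonads, counted against 3 counts over the group. F02H6.1 lay 460 bases downstream of the coding gene F02H6.2 on the same strand, which had 105 CPM in gonads and 0.452 CPM in *glp-4* worms.

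K06B9.2 (WBGene00019439, chromosome IV, 4188673 to 4195894) came next in abundance in gonads and had a higher level in *glp-4* worms. Its counts were 2480 and 2883 in gonads and 581 and 733 in *glp-4* worms, or 123 ± 7.82 CPM in gonads against 27.6 ± 1.03 CPM in *glp-4* worms (SD, n = 2). The log2 fold change was 2.16 ± 0.14 (SE, adjusted p = 4.91e-12, edgeR's quasi-likelihood test). K06B9.4 (chromosome IV, 4189939 to 4192931) lies inside the span of K06B9.2 on the opposite strand, with no exon base in common. It had 652 and 759 counts in gonads and 185 and 242 in *glp-4* worms, 3.61-fold higher in gonads. Nothing in the labels says that strand was kept, so intronic reads of one could not be told from reads of the other.

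Y57A10A.1 (WBGene00013246, chromosome II, 12134026 to 12147136), with 19 exons and 4196 exon bases, had 1814 and 2225 counts in gonads and 16 and 29 in *glp-4* worms. It was 97.5-fold higher in gonads (adjusted p = 1.22e-16, edgeR's quasi-likelihood test). K11H3.4 (WBGene00010781, chromosome III, 9832959 to 9834475) had 1817 and 1958 counts in gonads against 52 and 65 in *glp-4* worms, a 35.2-fold difference with little spread between the gonad libraries (86.8 ± 0.858 CPM, SD, n = 2). R119.1 (WBGene00020087, chromosome I, 357240 to 363901) had 794 and 898 counts in gonads and 10 and 11 in *glp-4* worms. These members were all low in *glp-4* worms, at 0.444 to 2.46 CPM on average.

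The rest of the 10 most abundant gonad-enriched pseudogenes ranged more widely in fold. F43G6.3 (WBGene00009656, chromosome II, 11782987 to 11784086) had 583 and 606 counts in gonads and 4 in each whole-worm library, a log2 fold change of 7.30 ± 0.31 (SE). Y82E9BR.2 (WBGene00022335, chromosome III, 1439096 to 1443192) had 574 and 846 counts in gonads and 15 and 41 in *glp-4* worms, so replicates differed more than for most of this set. W06A11.4 (WBGene00021055, chromosome II, 4056030 to 4057653) had 396 and 541 counts in gonads and 86 and 72 in *glp-4* worms, and C18H2.2 (WBGene00015989, chromosome III, 7679293 to 7682292) had 493 and 467 in gonads and 189 and 171 in *glp-4* worms. C18H2.2 differed least of the 10, by 2.89-fold (adjusted p = 2.66e-07, edgeR's quasi-likelihood test, the largest of the 10).

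No count was found in *glp-4* worms for 7 of the 175 pseudogenes. Beside F02H6.1, the most abundant were M151.4 (chromosome II, 3624198 to 3626882) with 100 and 101 counts in gonads and F29G9.7 (chromosome V, 6035397 to 6036683) with 72 in each gonad library, at least 73.1-fold and 52.4-fold higher in gonads. M151.4 lay 139 bases downstream of the coding gene M151.7 on the same strand, which had 13.3 CPM in gonads and 0.112 CPM in *glp-4* worms. Lack of counts in gonads was more frequent, with 38 of the 175 at 0 in both gonad libraries. At the same count threshold, 20 of 74 named pseudogenes, 802 of 5152 unnamed and 867 of 7920 named protein-coding genes had no count in gonads. In *glp-4* worms 2, 58 and 28 of these had none. Without a threshold, 3142 rows of the table had no count in *glp-4* worms and 6453 had none in gonads, among them rows without a count in any library. The differences between these sets were not tested.

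The most abundant whole-worm-enriched pseudogene was F25C8.1 (WBGene00009104, chromosome V, 20907470 to 20909746, 7 exons). It had no count in either gonad library, against 2337 and 3372 counts in *glp-4* worms (119.4 ± 15.7 CPM, SD, n = 2). It was at least 1744-fold lower in gonads, and its adjusted p was 4.20e-17 (edgeR's quasi-likelihood test). K09F6.4 (WBGene00019587, chromosome II, 2262197 to 2265665) was likewise at 0 in gonads, with 727 and 902 counts in *glp-4* worms, at least 498-fold lower in gonads. W04B5.1 (WBGene00021018, chromosome III, 2428204 to 2429430) was at 0 in gonads with 629 and 611 counts in *glp-4* worms. The present annotation places a coding gene, W04B5.8, on the same strand over 93.2% of the exon length of W04B5.1, so the reads of these could not be told apart.

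For 4 further members the gonad libraries held 1 to 3 counts in all, so the ratio is given with its exact counting interval. K02E7.6 (WBGene00019311, chromosome II, 1057212 to 1059280) had 2 and 1 counts in gonads and 1946 and 2128 in *glp-4* worms, a whole-worm to gonad ratio of 1244 with a 95% interval from 425 to 6037. Y113G7B.14 (WBGene00013763, chromosome V, 20226835 to 20228829) had 3 and 0 counts in gonads and 1519 and 1906 in *glp-4* worms, a ratio of 1046 (358 to 5075). W03D2.6 (WBGene00020981, chromosome IV, 4056586 to 4058243) had 0 and 1 counts in gonads and 1211 and 1366 in *glp-4* worms, a ratio of 2361 (423 to 93304). W03F8.2 (WBGene00020992, chromosome IV, 5190444 to 5192546) had 0 and 1 counts in gonads and 922 and 1044 in *glp-4* worms, a ratio of 1801 (323 to 71191). All 4 were therefore abundant in *glp-4* worms and at the limit of detection in gonads.

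Unlike those, 3 of the 10 kept a measurable level in gonads. Y73B3A.2 (WBGene00022204, chromosome X, 61165 to 63375) had 192 and 174 counts in gonads and 2315 and 2679 in *glp-4* worms, or 8.44 ± 0.948 CPM in gonads against 105 ± 2.51 CPM in *glp-4* worms (SD, n = 2). Y32F6A.6 (WBGene00044209, chromosome V, 10447881 to 10449037) had 7.59 and 10.5 CPM in gonads against 56.5 and 75.3 CPM in *glp-4* worms. It lies within the span of the coding gene Y32F6A.5 on the opposite strand, with no exon base in common. Y32F6A.5 had 70.4 CPM in gonads and 80.6 CPM in *glp-4* worms, and its intronic reads could not be told from reads of Y32F6A.6. Y105C5A.14 (WBGene00013638, chromosome IV, 15646970 to 15648298) had 98 and 74 counts in gonads and 843 and 934 in *glp-4* worms, and shares 22.4% of its exon length with a coding gene on the opposite strand. Their log2 fold changes were -3.64 ± 0.16, -2.86 ± 0.19 and -3.24 ± 0.20 (SE), and the groups did not overlap for any of them.

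**Figure D2:**
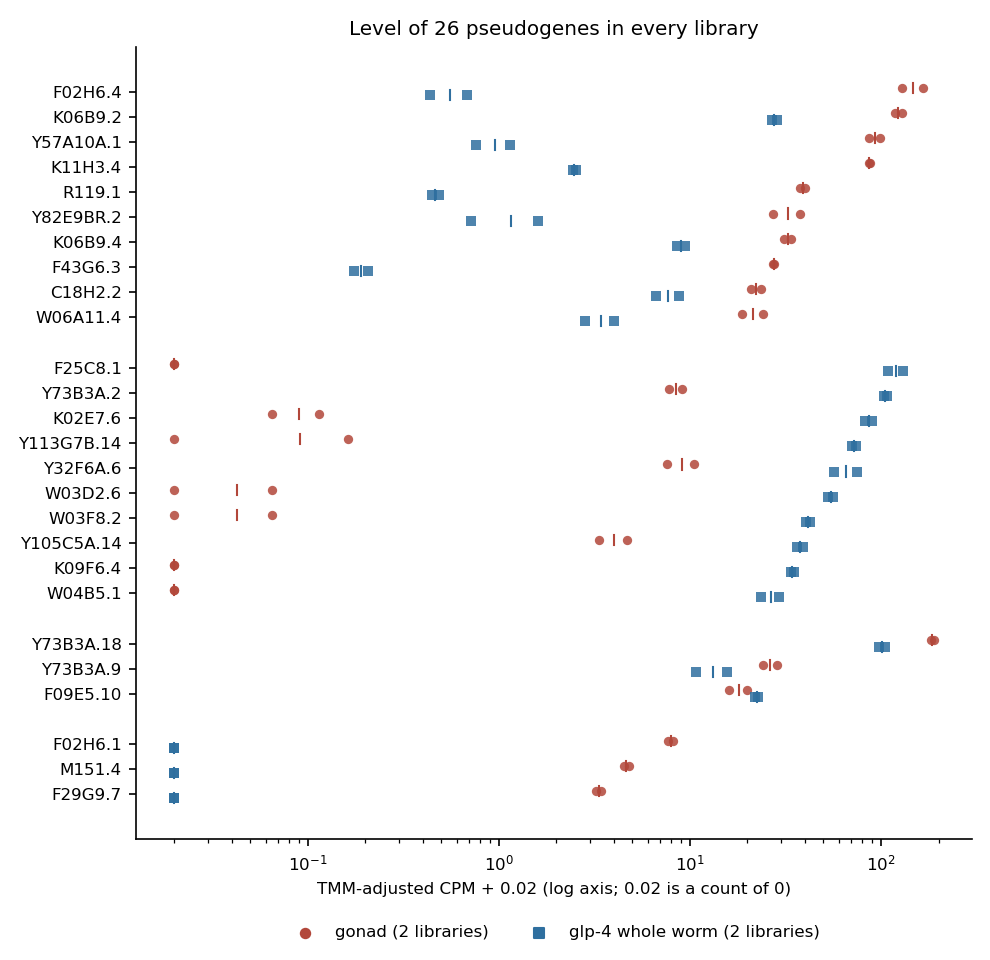
TMM-adjusted CPM plus 0.02 (horizontal, log axis) of 26 pseudogenes in each of the 2 gonad and 2 *glp-4* whole-worm libraries, with points for libraries and short lines for group means. From top to bottom stand the 10 most abundant gonad-enriched and the 10 most abundant whole-worm-enriched pseudogenes, 3 of neither call, and 3 at 0 in *glp-4* worms, and the duplicate points lie close together beside the distance between groups in the first 2 blocks.

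Only a few abundant pseudogenes had similar levels in both groups. The most abundant of all 175 was one of them. Y73B3A.18 (WBGene00022219, chromosome X, 59366 to 60750) had 3992 and 4079 counts in gonads and 2100 and 2717 in *glp-4* worms. Its levels were 186 ± 5.15 CPM in gonads against 101 ± 5.57 CPM in *glp-4* worms (SD, n = 2). That difference of 1.84-fold passed the test (adjusted p = 1.87e-06, edgeR's quasi-likelihood test) but not the fold minimum. Y73B3A.9 (chromosome X, 150363 to 157246) had 506 and 641 counts in gonads and 233 and 403 in *glp-4* worms and stood just under the minimum, at 1.99-fold. It was called gonad-enriched under 5 of the 10 other settings tried. F09E5.10 (WBGene00017288, chromosome II, 5347749 to 5350249) had 336 and 447 counts in gonads and 489 and 568 in *glp-4* worms, with a log2 fold change of -0.31 ± 0.17 (adjusted p = 0.0875, edgeR's quasi-likelihood test).

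Differences were often steep in both directions. With genes at 0 in a group set to the bound from 3 counts, gonad-enriched pseudogenes had a median fold of 11.7, and 22 of 67 (32.8%) differed by at least 32-fold. Of all 4043 gonad-enriched genes, 17.9% reached that size, and their median was 5.42-fold. Whole-worm-enriched pseudogenes had a median fold of 22.4, with 32 of 74 (43.2%) at 32-fold or more, beside 46.1% of all 6952 whole-worm-enriched genes at a median of 26.9-fold. A small difference in a weakly expressed gene does not pass the test. At the bound, a gene at 0 in a group with few counts in the other stays under 32-fold. C06C3.9, with 37 and 45 counts in *glp-4* worms alone, was set to 25.0-fold. At 0 in the other group were 6 of the 67 and 33 of the 74 pseudogenes, beside 78 of 4043 and 1582 of 6952 of all genes. The part of level in these shares was not tested.

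By chromosome, the pseudogenes stood furthest from other genes on the X, in the share that was gonad-enriched, and next on chromosome II. On chromosome V, 8 of 34 tested pseudogenes (23.5%) were gonad-enriched and 24 (70.6%) whole-worm-enriched, and of all 2488 tested genes there 23.1% and 66.6% were. On chromosome I the shares were 6 and 5 of 14 pseudogenes, or 42.9% and 35.7%, beside 44.4% and 35.1% of all tested genes. On chromosome II 17 of 32 (53.1%) were gonad-enriched, beside 35.9% of all tested genes there, and on chromosomes III and IV 47.6% of 21 and 41.2% of 34, beside 40.3% and 34.0%. On the X, 12 of 25 tested pseudogenes (48.0%) were gonad-enriched and 7 (28.0%) whole-worm-enriched. Of 10 tested X-linked pseudogenes with a gene name, 2 were gonad-enriched and 4 whole-worm-enriched. Of all 1966 tested X-linked genes, 152 (7.73%) were gonad-enriched and 1570 (79.9%) whole-worm-enriched. Median log2 fold changes on the X were 0.99 for the members, 0.36 for named pseudogenes and -4.33 for all tested genes, and these differences between the members and other genes were not tested.

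**Figure D3:**
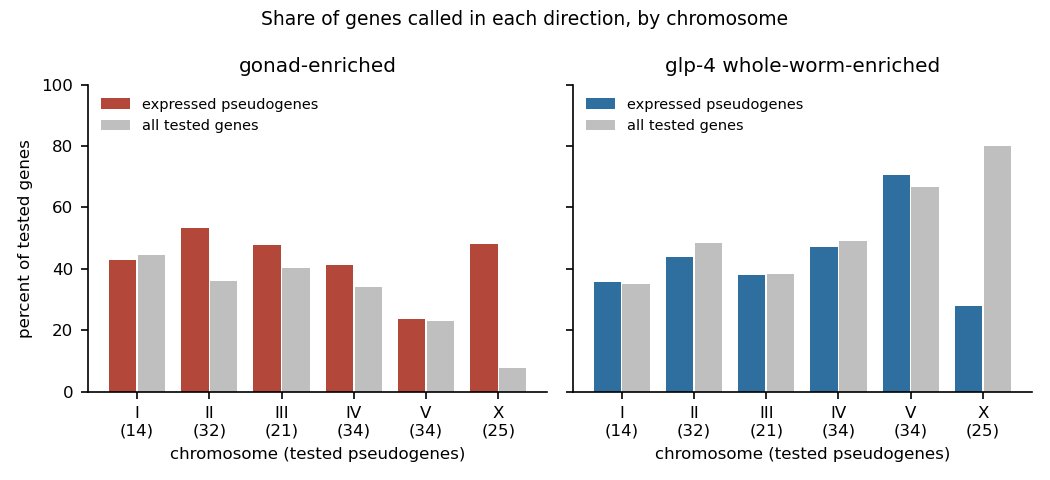
Percent of tested genes called gonad-enriched (left panel) and *glp-4* whole-worm-enriched (right panel) on each chromosome, for the expressed pseudogenes (coloured bars, number tested in brackets) and for all tested genes (grey bars). The bars of a pair differ by little on chromosomes I and V, whereas on the X 48.0% of pseudogenes and 7.73% of all tested genes were gonad-enriched.

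The X-linked count held across the settings tried, at 11 to 14 gonad-enriched and 6 to 8 whole-worm-enriched pseudogenes. Most of the X-linked gonad-enriched pseudogenes had few counts. The 12, named after their values were seen, include T08A9.6 (60 and 69 counts in gonads, 2 in each whole-worm library), F20B6.1 (32 and 36 against 3 and 1) and F22H10.5 (23 and 27 against none). Also among them were C52B11.4 (29 and 22 against 2 and 1), ZK678.3 (23 and 12 against 3 and 2), W05H7.2 (11 and 13 against 0 and 2) and F52G3.3 (31 and 30 against 12 and 15). F52G3.3 lost its call without either whole-worm library (adjusted p = 0.105 without replicate 1 and 0.101 without replicate 2, edgeR's quasi-likelihood test). The remaining 5 lie together at the left end of the chromosome.

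That left end holds the largest group of neighbouring pseudogenes, 11 members within X:261 to 171839, each under 50 kb from the next. This group was picked out after the values were seen. CE7X_3.1 had 223 and 275 counts in gonads and 61 and 83 in *glp-4* worms, a log2 fold change of 1.92 ± 0.23 (SE). Y73B3A.16 had 46 and 54 counts in gonads and 2 and 4 in *glp-4* worms, Y35H6.3 had 15 in each gonad library against 1 and 2, and Y73B3A.21 had 24 and 25 against 4 and 14. Y73B3A.3 had 167 and 174 counts in gonads and 89 and 88 in *glp-4* worms, and fell below the fold minimum without whole-worm replicate 2 (log2 0.91). Y73B3A.21 lost its call without whole-worm replicate 1 (adjusted p = 0.205, edgeR's quasi-likelihood test). The only whole-worm-enriched member of the group was Y73B3A.2, given above, which lies next to Y73B3A.18 on the other strand.

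In all, 5 of the 11 were gonad-enriched, 1 was whole-worm-enriched and 5 were called in neither direction. CE7X_3.2 had 124 and 148 counts in gonads and 203 and 183 in *glp-4* worms, Y73B3A.13 had 52 and 36 against 83 and 69, and T08D2.2 had 102 in each gonad library against 57 and 82. Other tested genes of the same stretch were mixed as well, with 4 gonad-enriched and 2 whole-worm-enriched of 6. The coding gene Y73B3A.1 led them with 1504 and 1808 counts in gonads and 36 and 42 in *glp-4* worms. Outside this stretch, 7 of 14 tested X-linked pseudogenes were gonad-enriched, beside 143 of 1949 tested X-linked genes (7.34%).

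**Figure D4:**
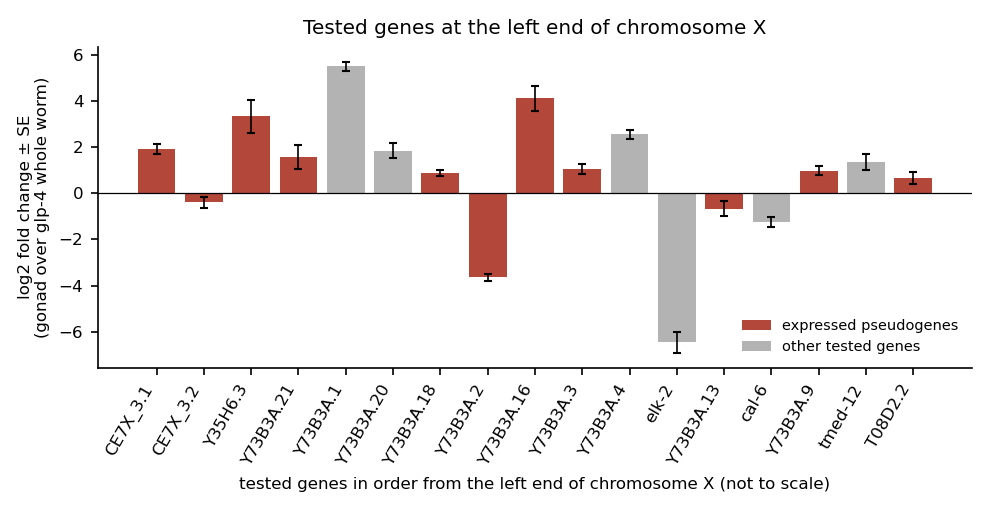
Log2 fold change, gonad over *glp-4* whole worm, with SE bars, of the tested genes in order from the left end of chromosome X, not to scale. Red bars are expressed pseudogenes and grey bars other tested genes, and the pseudogene bars range from -3.64 for Y73B3A.2 to 4.13 for Y73B3A.16.

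Of 9 smaller groups of neighbouring pseudogenes, 5 had more than 1 called member and a single direction, 2 were split, and 2 had 1 called member each. These groups too were picked after their values were seen, and no share over groups of other neighbouring genes was computed. Y57A10A.1, Y57A10A.3 and Y57A10A.7 (chromosome II, 12134026 to 12162661) were all gonad-enriched, as were all 3 other tested genes of that stretch. Y57A10A.3 had 160 and 193 counts in gonads and 3 and 7 in *glp-4* worms, and Y57A10A.7 had 197 and 174 against 0 and 8. F52C6.12, F52C6.13 and F52C6.14 (chromosome II, 1929151 to 1934507) were gonad-enriched at low counts, with 54 and 45, 11 and 28, and 25 and 33 counts in gonads and 13 and 28, 0 and 1, and 4 and 2 in *glp-4* worms. F52C6.12 lost its call without whole-worm replicate 1 (adjusted p = 0.0788, edgeR's quasi-likelihood test).

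Whole-worm-enriched groups were found on chromosomes II, III and V. K09F6.4, K09F6.5 and ZK1240.4 (chromosome II, 2262197 to 2315622) summed to 0 and 2 counts in gonads, the 2 from K09F6.5, and each was called, while of 10 other tested genes there 8 were whole-worm-enriched and 2 gonad-enriched. W04B5.1, W04B5.2 and E02H9.2 (chromosome III, 2424355 to 2466901) were called as well, like all 4 other tested genes there. E02H9.2 had 6 and 4 counts in gonads against 243 and 299 in *glp-4* worms. On chromosome V (3377536 to 3407893), C04E12.10, T20D4.13 and T20D4.9 were whole-worm-enriched with at most 1 count in gonads, while T20D4.8, with 6 and 21 counts in *glp-4* worms alone, was not tested, and all 3 other tested genes there were whole-worm-enriched. A group of 6 on chromosome IV (4130503 to 4195894) was split, with F49F1.8, K06B9.2 and K06B9.4 gonad-enriched and R07C12.2, R07C12.4 and K08D10.9 whole-worm-enriched, and of 6 other tested genes there 3 were gonad-enriched and 2 whole-worm-enriched. A group of 3 on the X (1402025 to 1435916) was split as well, with W05H7.2 gonad-enriched and ZK402.3 and F19G12.2 whole-worm-enriched, and all 4 other tested genes there were whole-worm-enriched.

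Coding genes that adjoin or overlap a pseudogene were compared with it where both were called. A coding gene lay within 1000 bases upstream on the same strand for 28 of the 175 pseudogenes. Both were called in 18 such pairs and had the same direction in all 18, beside 1520 of 1886 called pairs (80.6%) among coding genes spaced in this way. Another 17 pseudogenes lay within the span of a coding gene without sharing exon bases, 12 of them on the opposite strand. In this set 9 pairs were called on both sides, and all 9 had the same direction. Exon bases were shared with a coding gene of the table by 15 pseudogenes, with the same direction in all 6 pairs that were called. No share over all genes was computed for these relations, and no difference from other genes was tested. Reads running past an annotated end, intronic reads and reads of either strand could not be told apart from pseudogene reads in these counts.

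**Figure D5:**
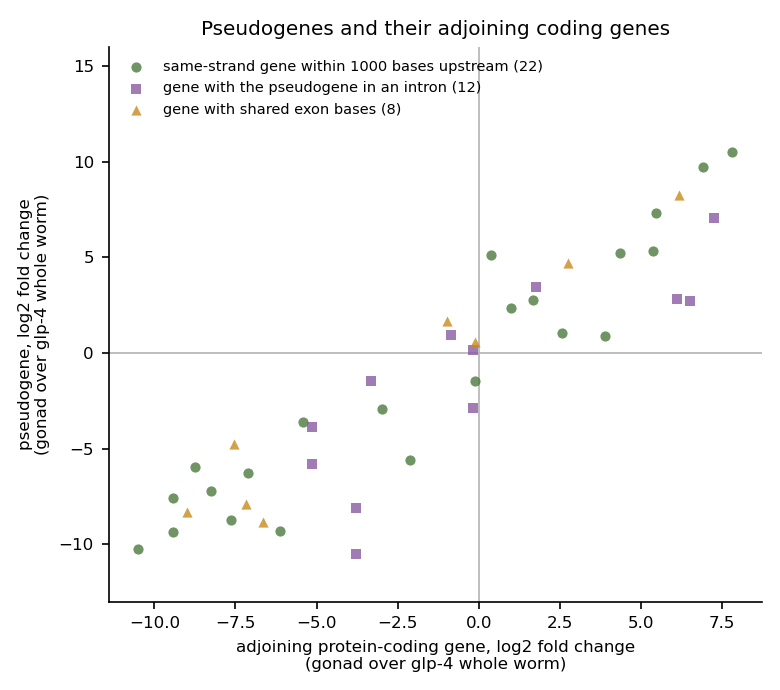
Log2 fold change (gonad over *glp-4* whole worm) of tested pseudogenes (vertical) against that of an adjoining tested coding gene (horizontal). Shown are 22 coding genes within 1000 bases upstream on the same strand and 8 with shared exon bases. Another 12 have the pseudogene within their span and no shared exon base (labelled as in an intron). Most points lie at lower left and upper right, and K11H3.4 (5.14 against 0.39 for ZK632.12) stands off the trend.

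Levels within such pairs differed in both directions. These pairs were named after their values were seen. F43G6.3 lay 590 bases downstream of *dna-2*, which encodes a nuclease-helicase of DNA replication and repair, and had 27.4 CPM in gonads where *dna-2* had 316 CPM. F21F8.6 lay 139 bases past the aspartic protease gene *asp-6*, at 0.823 CPM in *glp-4* worms where *asp-6* had 1569 CPM, and shares 27.9% of its exon length with the coding gene F21F8.5 on the same strand. In contrast K11H3.4 (86.8 CPM in gonads against 2.46 CPM in *glp-4* worms) lay 535 bases past ZK632.12, which had 23.6 and 18.1 CPM in these groups and was called in neither direction. W03F8.2 had 0.0223 CPM in gonads against 41.6 CPM in *glp-4* worms. It lies on the opposite strand within the span of the G protein alpha subunit gene *gpa-18* (0.0921 and 1.34 CPM), with no exon base in common. On the scale of CPM without length, K11H3.4 was above ZK632.12 in gonads and below it in *glp-4* worms. W03F8.2 was above *gpa-18* in *glp-4* worms, while both were near the limit of detection in gonads.

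Most members share no exon with another annotated gene. For 143 of the 175 no exon base was shared with another gene on either strand. Of these, 131 were tested, with 59 gonad-enriched (45.0%) and 58 whole-worm-enriched (44.3%) and a median log2 fold change of 0.79. Of the 32 with shared exon bases, 29 were tested, with 8 gonad-enriched (27.6%), 16 whole-worm-enriched (55.2%) and a median of -2.42. The shares of these 29 are closer than those of the 131 to the 30.9% and 53.1% of all tested genes. The difference between both sets of members was not tested. For 6 of the 32 more than 50% of the exon length was shared.

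Listed genes of nonsense-mediated decay and of the 22G-RNA and WAGO pathway were mostly higher in gonads. Of 9 *smg* genes for nonsense-mediated decay, 7 were gonad-enriched and none whole-worm-enriched. Under the other settings tried, 6 to 8 were gonad-enriched, and log2 fold changes had a median of 1.99. The other two, *smg-1* and *smg-6*, differed by 0.97 ± 0.13 and 0.89 ± 0.13 (SE), under the fold minimum. The helicase gene *smg-2* had 187 CPM in gonads against 87.8 CPM in *glp-4* worms, and *smg-4* had 147 and 23.4 CPM. Of 20 genes of the 22G-RNA and WAGO pathway, 16 were gonad-enriched and 1 was whole-worm-enriched, with a median of 2.41. Of all tested genes, 30.9% were gonad-enriched, and their median was -1.50. Among Argonaute genes, *wago-1* had 897 CPM in gonads against 11.2 CPM in *glp-4* worms, whereas *sago-1* had 15.5 and 314 CPM. The Argonaute genes *ppw-1*, *sago-2* and *nrde-3* were called in neither direction. Both lists were chosen for the link of their pathways to pseudogene transcripts. The part of each listed gene, *csr-1* included, in handling such transcripts was not examined, and no value here ties a pseudogene to these genes.

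Members at the threshold were too weakly expressed to be tested. Just inside it at 20 counts were F59H6.3 (7 and 11 counts in gonads, 1 in each whole-worm library), K08B4.5 (12 and 6 against 2 and 0) and F55C5.6 (none against 4 and 16). Just outside at 19 counts were C09E7.5 (4 and 13 against 1 and 1), E02H9.4 (none against 10 and 9) and R102.7 (0 and 1 against 5 and 13). In all, 15 of the 175 were not tested, and 94 had at least 1 count in every library. Per library, 125 and 131 of the 175 were detected in gonads and 157 and 161 in *glp-4* worms.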

How the data were processed

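Total RNA was depleted of ribosomal RNA and amplified into cDNA libraries, per the labels' protocols. The authors deposited raw counts per gene (whole numbers) and a log2 table. Its values match, to 5e-05, a log2 transform after adding 8 to counts brought to a common library size. Only the deposited counts were tested. No aligner, counter or genome build is named (not given in the sources used here). One row that repeated another gene's counts was left out. Biotypes and coordinates come from Ensembl release 115 (WBcel235), and gene names from RefSeq, matched by sequence name for all 720 pseudogene rows, each of which RefSeq also calls a pseudogene.

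Counts were fitted with edgeR 4.0.16 in R 4.3.3 (quasi-likelihood, robust, TMM, filterByExpr with minimum count 10 and total 15, group as the only term) and adjusted by Benjamini-Hochberg over all 13101 tested genes. The procedure was tested on simulated data. DESeq2 1.42.0, RLE factors, other filters, a replicate block and each library left out were alternatives. Replicate libraries differed beyond sampling noise (chi-square per degree of freedom 18.9 in gonads and 16.9 in whole worms). Named members were the 10 most abundant called in each direction, the 3 most abundant of neither call, the 3 most abundant at 0 in each group, and 3 on either side of the threshold; others are marked in the text. Members and lists were chosen with earlier results of these data known. Sequence similarity between members and other genes was not analysed here.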

Additional observations from a re-analysis of the deposited data

How the results depend on the processing

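Counts of called pseudogenes and of all genes stayed within 1.5 times of the values above under every alternative. Leaving out 1 library gave 64 to 68 gonad-enriched and 71 to 79 whole-worm-enriched pseudogenes, and 4049 to 4081 and 6666 to 7325 of all genes. Without 1 library, some called pseudogenes lost their call or were no longer tested, and others gained a call. Of those still tested, none that lost its call had over 518 counts in total. None that was called in both fits turned direction. With one sample left in a group, that sample is assumed to vary like the others. DESeq2 called 69 and 77 pseudogenes, RLE factors 70 and 74, and testing all 175 gave 74 and 78. Plain library totals, added after the data were seen, gave 66 and 75 and moved the median log2 fold change of all genes by -0.16. With a replicate block the counts were 67 and 74 (4019 and 6904 of all genes). Deviations of same-numbered libraries had a correlation of 0.0893 across genes, so the numbers are not taken to pair samples. A threshold of 10 or 40 counts gave 67 and 74 or 59 and 65. Also counting pseudogenes with a gene name gave 85 and 111, and leaving out the left end of the X gave 62 and 73, both chosen after the data were seen. The summed whole-worm level of 1205 CPM was 1029 CPM without members that share exon bases and 1272 CPM by plain library totals (1089 CPM in gonads), moves beyond the replicate spread. For the 26 named pseudogenes, 255 refits kept direction and call, and the other 5, all of Y73B3A.9, passed the fold minimum. At the threshold of 10 counts there were 209 members, of which the same number as before, 160, passed the filter for testing.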
